A study of Mus musculus with 8 samples.

Results

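The mRNAs of the E2 ubiquitin-conjugating enzymes that carry a Ube2 name were compared between RNA recovered with an anti-GFP antibody, RNA recovered with an anti-PABP1 antibody and total RNA of mouse embryonic stem (ES) cells. The members were every gene whose name on the array starts with Ube2, which gave 31 of 27949 gene names and 81 of 41144 probes. The probe with the highest mean signal over the 8 arrays stood for each gene, and the others served as a check. For 30 of the 31 at least 1 group had all its arrays well above background, and these entered the test with 14730 genes in all. The remaining gene, Ube2u, was not well above background on any array. Signal was well above background on all 8 arrays for 27 members. Ube2d1 met this on 0 of 3 input arrays, Ube2w on 2 of 3 input arrays, and Ube2l6 on the PABP1 IP arrays alone. The array's Ube2q is now called Ube2q1 and its Ube2d2 is now called Ube2d2a.

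E2 enzymes are the middle step of ubiquitination. An E1 enzyme activates ubiquitin and passes it to the active-site cysteine of an E2, and an E3 ligase then brings the loaded E2 to the protein to be marked. The E2 largely sets the type of ubiquitin chain that is built, and a few E2s carry a ubiquitin-like protein such as NEDD8 or ISG15 in place of ubiquitin.

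All 8 samples came from 1 re-derived transgenic ES line, named Dazl-GFP, kept with irradiated feeder fibroblasts, 15% serum, LIF, the MEK inhibitor PD0325901 at 1 µM and the GSK3β inhibitor CHIR99021 at 3 µM. The study asked which RNAs DAZL binds, DAZL being an RNA-binding protein of germ cells that attaches to the 3′ untranslated regions of mRNAs. The groups were 3 native immunoprecipitations (IPs) with anti-GFP antibody, 2 with anti-PABP1 antibody, which recognises the cytoplasmic poly(A)-binding protein, and 3 inputs of total RNA. An IP with a control antibody was not analysed here, and the sources used do not say whether GFP is joined to DAZL in this line or reports its gene.

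Each sample was measured on a 1-colour Agilent array, and 41.5% to 52.6% of 43379 spots per array were well above background. Levels are log2 signals from which the 75th percentile of the same array was subtracted, so that 0 is that percentile. Differences are between group means of these log2 levels, with limma's standard error and a p-value adjusted over all 14730 genes; a call means an adjusted p under 0.05. An IP level is the mRNA's share of the recovered RNA, and in such bulk samples fewer cells of a type and less RNA per cell cannot be told apart. Nothing in the labels says that a group's arrays come from separate cultures, so the p-values reflect only how far these samples spread, and that spread may be technical. The GFP IP held 14.1-fold more Dazl mRNA signal than input (log2 difference 3.81 ± 0.21, adjusted p = 2.15e-05). Pabpc1 mRNA, which encodes PABP1, differed from input by 0.22 ± 0.68 in the PABP1 IP (adjusted p = 0.799). Of the ES cell markers, 10 of 12 were on the array and all 10 were well above background on every array. Their summed signal, in units of the array's 75th percentile, was 1600 to 2100 in GFP IPs, 2230 to 4110 in PABP1 IPs and 2320 to 4280 in inputs. Of these 10, 5 were higher and 2 lower in the GFP IP than in input, and 5 were higher and 1 lower in the PABP1 IP. The 17 feeder fibroblast markers were also detected, and their summed signal, in units of the array's 75th percentile, was 141 to 200 in GFP IPs, 493 to 520 in PABP1 IPs and 308 to 408 in inputs. Of these 17, 2 were higher and 11 lower in the GFP IP than in input, and 7 were higher and 1 lower in the PABP1 IP. Of 9 primitive endoderm markers, the number well above background on no array of the group was 3 in GFP IPs, 2 in PABP1 IPs and 5 in inputs, and their summed signal was 1.34 to 1.58 in GFP IPs, 1.86 to 2.06 in PABP1 IPs and 2.09 to 2.17 in inputs. The part of these markers in the Ube2 values was not tested.

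In the GFP IP, 16 of the 30 Ube2 mRNAs were higher than in input and 3 were lower, where 21.5% of all tested genes were higher and 43.3% lower. The highest was Ube2j2, an E2 anchored in the endoplasmic reticulum (ER) membrane, at 12.1-fold input, and the lowest was Ube2o, a large protein that works as E2 and E3 in one, which fell by 1.05 ± 0.12 on the log2 scale. The median log2 difference of the 30 was 0.77, against -0.51 for all tested genes, and 28 of the 30 lay above the median gene. Log2 differences over 1 were found for 11 members, and for 14% of all tested genes. A low-signal filter can favour a gene that is bright in an IP alone. Among the 27 members well above background on all 8 arrays, 14 were higher and 3 lower, against 23.3% and 49.7% of 11377 such genes, and the median was 0.45.

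In the PABP1 IP, 24 of the 30 were higher than in input and 1, Ube2o, was lower, where 34.3% of all tested genes were higher and 25.4% lower. The largest measured difference was that of Ube2d1, which is only bounded because no input array detected it, and Ube2a followed at 6.40-fold input. The median log2 difference was 1.60, against 0.24 for all tested genes, and 25 of the 30 lay above the median gene. Log2 differences over 1 were found for 21 members, and for 26.1% of all tested genes. Of the 27 members detected on all arrays, 21 were higher and 1 lower, against 38.1% and 29.5%. Both IPs were compared with the same 3 inputs, so these counts are not independent of each other.

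Between the IPs, 6 Ube2 mRNAs were higher in the GFP IP than in the PABP1 IP and 13 were lower, where 24.0% of all tested genes were higher and 47.4% lower. The median log2 difference was -0.41, against -0.67 for all tested genes, and 18 of the 30 lay above the median gene. The members spread widely, with Ube2o at 1.01 ± 0.13 and Ube2j2 at 1.00 ± 0.18 at one end, and Ube2a at -2.71 ± 0.15 and Ube2f at -2.64 ± 0.16 at the other. Among the 27 members detected on all arrays the counts were again 6 and 13, against 25.7% and 50.6%. The arrays of the groups did not overlap, GFP IP over PABP1 IP, for 7 members above and 18 below, against 27.2% and 53.6% of all tested genes. The same counts were 17 and 3 for the GFP IP over input (23.2% and 46.2%) and 25 and 2 for the PABP1 IP over input (40.9% and 30%).

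**Figure D1:**
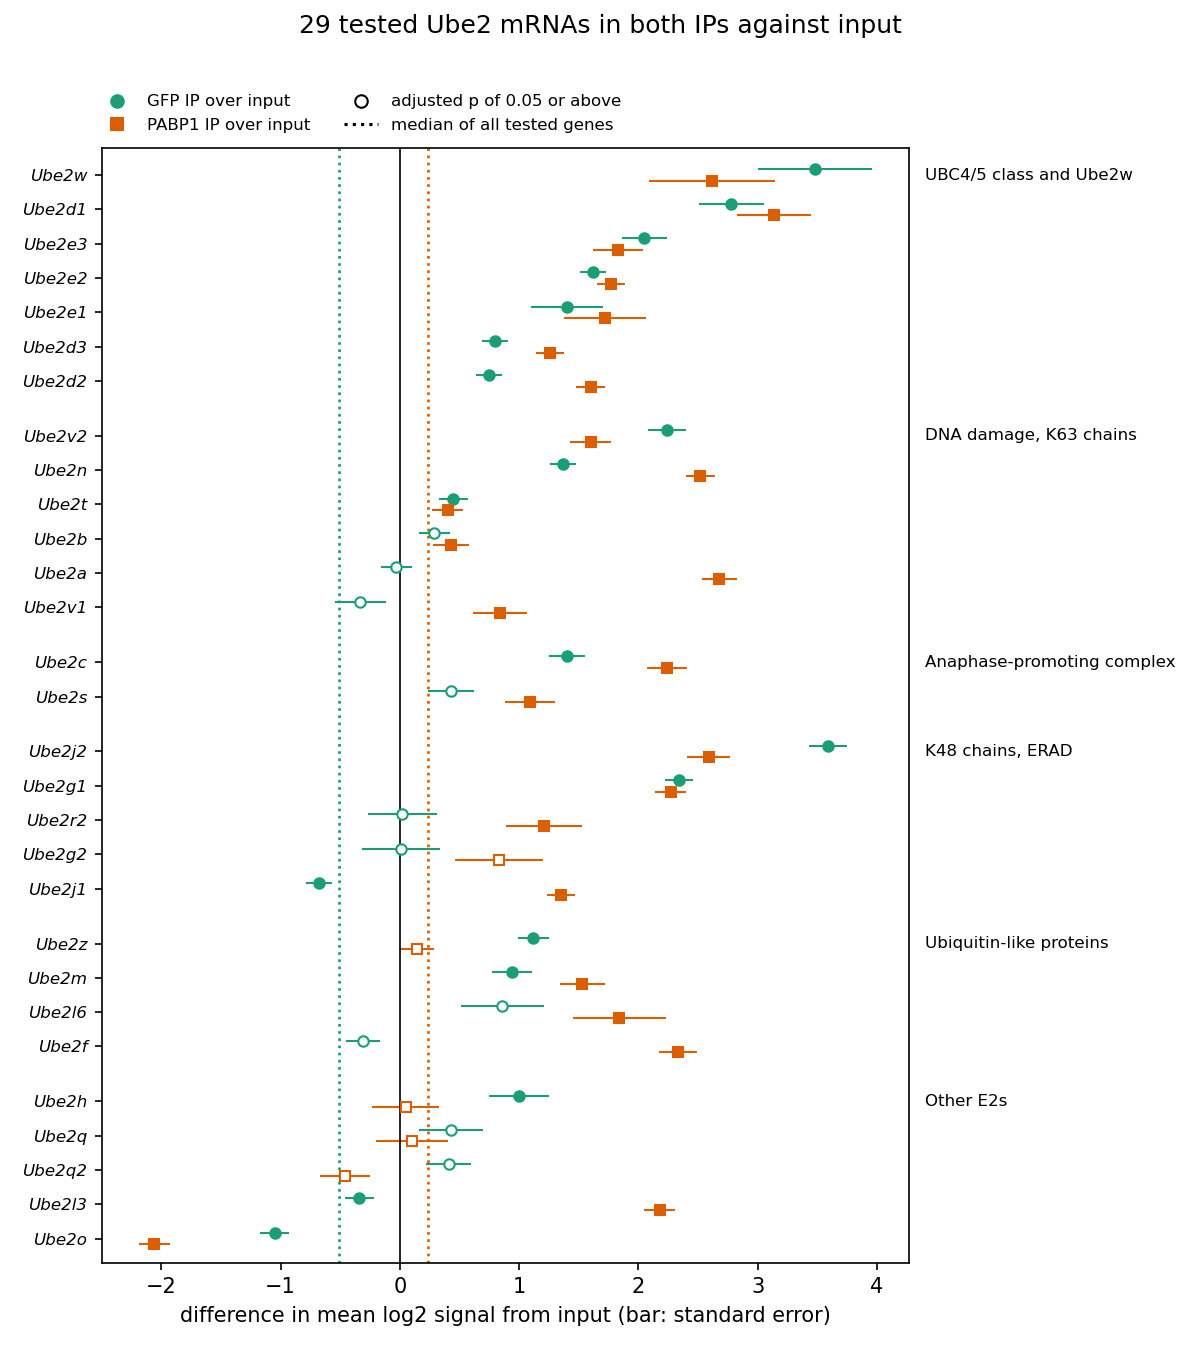
Difference in mean log2 signal from input (x axis, with standard error) of 29 tested Ube2 mRNAs in the GFP IP (circles) and the PABP1 IP (squares), grouped by role; open symbols have an adjusted p of 0.05 or above, and dotted lines mark the medians of all tested genes at -0.51 and 0.24. Ube2j2 and Ube2w lie farthest right in the GFP IP at 3.59 and 3.48, and Ube2o lies left of 0 in both IPs; the Ube2d1 points stand on inputs not well above background.

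Each slide held arrays of all 3 groups. Slide 1 held Input 1, Input 2, PABP1 IP 1 and GFP IP 2, and slide 2 held Input 3, PABP1 IP 2, GFP IP 1 and GFP IP 3. Some groups had only 1 array on a slide, so no counts of calls are given within slides. The members' medians in the 3 comparisons were 0.62, 1.56 and -0.41 within slide 1 and 0.80, 1.61 and -0.45 within slide 2. With slide as a block, members called higher and lower numbered 17 and 4 for the GFP IP and 25 and 2 for the PABP1 IP, each over input. Between the IPs they numbered 6 and 15. Over all 14730 tested genes that fit called 3618 and 7503, 6362 and 4518, and 3977 and 8214. The members' medians were then 0.76, 1.60 and -0.44.

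The counts depend on how the arrays are scaled and corrected for background. Scaling to each array's median changed the numbers higher and lower over all tested genes to 4495 and 3117 for the GFP IP over input, against 3161 and 6381 otherwise, and those of the members to 22 and 1. Between the IPs that scaling gave 4337 higher and 4868 lower over all genes, against 3528 and 6988, and 7 and 7 members. With the 75th percentile taken over probes detected on all arrays, the numbers over all genes were 4173 and 4616 for the PABP1 IP over input, against 5046 and 3736, with 22 and 2 members, and 4517 and 5209 between the IPs, with 9 and 9 members. The members' median relative to the median gene, which scaling by 1 constant per array cannot change, was 1.28 for the GFP IP and 1.36 for the PABP1 IP, each over input, and 0.26 between the IPs. It was 0.93, 1.37 and 0.11 over genes detected on all 8 arrays, and 1.53, 1.93 and -0.09 with no filter on dim probes. A model-based background correction (normexp, with an offset of 50) left 5 members higher and 0 lower in the GFP IP over input. It called 597 genes higher and 971 lower over the whole array. The members' medians relative to the median gene were then 0.54, 1.44 and -0.31 in the 3 comparisons. The offset is a constant added to every signal, and median intensities per array were 5.88 to 11.5. Its part in these counts was not tested apart from the correction.

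The E2s of the UBC4/5 class, which work with many E3 ligases and often place the first ubiquitin, are described together with Ube2w, which attaches ubiquitin to the amino end of proteins. All 7 were called higher than input in the GFP IP (21.5% of all tested genes) and all 7 in the PABP1 IP (34.3%), with median log2 differences of 1.62 and 1.77. Of the 7, Ube2d1 and Ube2w passed the filter on dim probes only through the IPs. Normexp ended the GFP IP calls of Ube2d1, Ube2d2, Ube2d3, Ube2e1 and Ube2e2 and the PABP1 IP calls of Ube2d1, Ube2d3 and Ube2w. Between the IPs 0 were higher and 2 lower (24.0% and 47.4% of all tested genes).

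The 3 Ube2d proteins are near-identical in sequence, so their probes may read each other's mRNAs. Ube2d1 had log2 levels of -3.03, -2.55 and -2.56 in GFP IPs and -2.50 and -2.21 in PABP1 IPs, against -4.96, -5.59 and -5.95 in inputs. It was not well above background on the input arrays, and its signal was at least 1.53-fold higher in the GFP IP and at least 1.95-fold higher in the PABP1 IP than in input. These folds are lower bounds, set against the dimmest probes that each input array still detected. Since Ube2d1 entered the test only through the IPs, no p is given for these differences; with normexp its log2 differences from input were 0.19 and 0.11. Ube2d2 had log2 levels of 2.51, 2.36 and 2.41 in GFP IPs and 3.22 and 3.34 in PABP1 IPs, against 1.70, 1.59 and 1.76 in inputs. All 3 groups were apart, with the PABP1 IP highest, and the log2 difference between the IPs was -0.85 ± 0.12 (adjusted p = 0.000605). Ube2d3 had log2 levels of 3.75, 3.73 and 3.80 in GFP IPs and 4.21 and 4.24 in PABP1 IPs, against 3.09, 2.91 and 2.89 in inputs. It kept the order of Ube2d2, with log2 differences of 0.80 ± 0.11 for the GFP IP over input (adjusted p = 0.000547) and 1.26 ± 0.12 for the PABP1 IP over input (adjusted p = 0.000119). Its difference between the IPs, -0.46 ± 0.12 (adjusted p = 0.0104), was 0.07 after quantile normalization and lost its call without PABP1 IP 2 (adjusted p = 0.0533).

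The Ube2e proteins add an amino-terminal extension to the same catalytic core. Ube2e1 had log2 levels of 1.23, 0.83 and 1.28 in GFP IPs and 1.17 and 1.69 in PABP1 IPs, against -0.77, -0.42 and 0.33 in inputs. Its inputs were widely spread but lay below both IPs, with log2 differences of 1.40 ± 0.30 (GFP IP, adjusted p = 0.00552) and 1.72 ± 0.34 (PABP1 IP, adjusted p = 0.00378). Ube2e2 had log2 levels of 2.11, 1.98 and 1.92 in GFP IPs and 2.12 and 2.18 in PABP1 IPs, against 0.33, 0.40 and 0.41 in inputs. Both IPs stood about equally far above its inputs, 3.08-fold in the GFP IP (adjusted p = 3.38e-05) and 3.41-fold in the PABP1 IP (adjusted p = 3.41e-05). Ube2e3 had log2 levels of 3.59, 3.05 and 3.32 in GFP IPs and 2.97 and 3.22 in PABP1 IPs, against 1.10, 1.16 and 1.54 in inputs. The IPs overlapped and the inputs lay below, with log2 differences of 2.05 ± 0.19 (adjusted p = 0.000113) for the GFP IP and 1.83 ± 0.21 (adjusted p = 0.000296) for the PABP1 IP. None of the 3 Ube2e mRNAs passed the test between the IPs, where their log2 differences were -0.32 ± 0.34, -0.15 ± 0.12 and 0.23 ± 0.21 (adjusted p = 0.415, 0.291 and 0.354); blocking on slide brought Ube2e1 past the threshold, at -0.43 (adjusted p = 0.0493).

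Ube2w had log2 levels of 1.20, 0.53 and 0.99 in GFP IPs and -0.25 and 0.36 in PABP1 IPs, against -3.46, -2.73 and -1.52 in inputs. Its inputs were both low and scattered, and 1 of them was not well above background. Ube2w also entered the test only through the IPs, so no p is given for its differences from input. The log2 difference was 3.48 ± 0.48 for the GFP IP over input and 2.62 ± 0.53 for the PABP1 IP over input (0.78 with normexp). Between the IPs it was 0.85 ± 0.53 (adjusted p = 0.184), although the arrays did not overlap.

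Among the E2s of DNA damage tolerance and of lysine-63 chains, 3 of 6 were higher than input in the GFP IP (21.5% of all tested genes) and 6 of 6 in the PABP1 IP (34.3%), with median log2 differences of 0.37 and 1.22. The PABP1 IP call of Ube2v2 (1.60 ± 0.17) was lost as the mean of the gene's probes, at 0.25 (adjusted p = 0.541). Its other probes, detected on 7 and 4 of the 8 arrays, gave -0.30 and -0.54 there. Between the IPs 1 of the 6 was higher and 3 were lower (24.0% and 47.4% of all tested genes). UBE2A and UBE2B are the mammalian counterparts of yeast Rad6, which marks PCNA with RAD18 and histone H2B with RNF20, and Ube2b is required for mouse spermatogenesis. Ube2a had log2 levels of 2.55, 2.50 and 2.49 in GFP IPs and 5.37 and 5.09 in PABP1 IPs, against 2.69, 2.56 and 2.39 in inputs. GFP IP and input arrays overlapped and the PABP1 IP stood far above both, 6.40-fold over input (log2 difference 2.68 ± 0.15, adjusted p = 1.93e-05). The log2 difference of the GFP IP from input was -0.03 ± 0.13 (adjusted p = 0.828), and that between the IPs, -2.71 ± 0.15, was the lowest of the 30 (adjusted p = 1.07e-05). A second Ube2a probe, detected on all 8 arrays, was above input in the GFP IP by 0.89 (difference between probes -0.92 ± 0.14, adjusted p = 0.0012). Ube2b had log2 levels of 4.59, 4.45 and 4.52 in GFP IPs and 4.70 and 4.62 in PABP1 IPs, against 4.02, 4.28 and 4.40 in inputs. The IPs lay just above the inputs, and the log2 differences were 0.29 ± 0.13 for the GFP IP over input (adjusted p = 0.0853) and 0.43 ± 0.15 for the PABP1 IP over input (adjusted p = 0.0370). The PABP1 IP call of Ube2b was lost without Input 1, Input 2 or any 1 of the IP arrays, with adjusted p-values of 0.0520 to 0.153, and its log2 difference was -0.41 as the mean of the gene's probes. A Ube2b probe designed on a cDNA clone was well above background on 3 of the 8 arrays, the inputs, where it was at least 17.7-fold brighter than in the GFP IP and at least 16.8-fold brighter than in the PABP1 IP. That probe was among those averaged in the mean of the gene's probes. The 4 Ube2b probes detected on all 8 arrays lay from 0.43 to 2.31 for the PABP1 IP over input and from 0.29 to 2.07 for the GFP IP over input.

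UBE2N builds lysine-63 chains with a partner, UBE2V1 or UBE2V2, that has the E2 fold but no catalytic cysteine. Ube2n had log2 levels of 1.28, 1.42 and 1.22 in GFP IPs and 2.52 and 2.38 in PABP1 IPs, against -0.11, -0.04 and -0.05 in inputs. Both IPs were above input and the PABP1 IP was the higher, with log2 differences of 1.37 ± 0.11 for the GFP IP over input (adjusted p = 6.8e-05) and 2.52 ± 0.12 for the PABP1 IP over input (adjusted p = 1.72e-05). Ube2v1 had log2 levels of 4.51, 4.55 and 4.31 in GFP IPs and 5.84 and 5.42 in PABP1 IPs, against 5.11, 4.84 and 4.42 in inputs. GFP IP and input overlapped, at a log2 difference of -0.33 ± 0.21 (adjusted p = 0.187), and the PABP1 IP was higher than input by 0.84 ± 0.23 (adjusted p = 0.0168; 0.114 without PABP1 IP 1). Ube2v2 had log2 levels of 1.54, 1.89 and 1.54 in GFP IPs and 0.99 and 1.03 in PABP1 IPs, against -0.36, -0.72 and -0.68 in inputs. Here the GFP IP was the highest group, at log2 differences of 2.24 ± 0.16 over input (adjusted p = 4.19e-05) and 0.64 ± 0.17 over the PABP1 IP (adjusted p = 0.0126; 0.0630 without PABP1 IP 1). Between the IPs the log2 difference was -1.15 ± 0.12 for Ube2n (adjusted p = 0.000138) and -1.17 ± 0.23 for Ube2v1 (adjusted p = 0.00302). On the probes that stood for these genes, the mRNAs of the catalytic subunit and of its partners did not all lean the same way. A second Ube2n probe, detected on all 8 arrays, leaned like Ube2v2, at 0.56 (difference between probes -1.71 ± 0.16, adjusted p = 0.000115). Ube2t, the E2 of the Fanconi anaemia pathway, was higher than input by 0.45 ± 0.12 in the GFP IP (adjusted p = 0.0134) and by 0.40 ± 0.13 in the PABP1 IP (adjusted p = 0.0330). The PABP1 IP call of Ube2t was lost without any 1 of the 3 inputs, either PABP1 IP or GFP IP 3, with adjusted p-values of 0.0514 to 0.186.

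**Figure D2:**
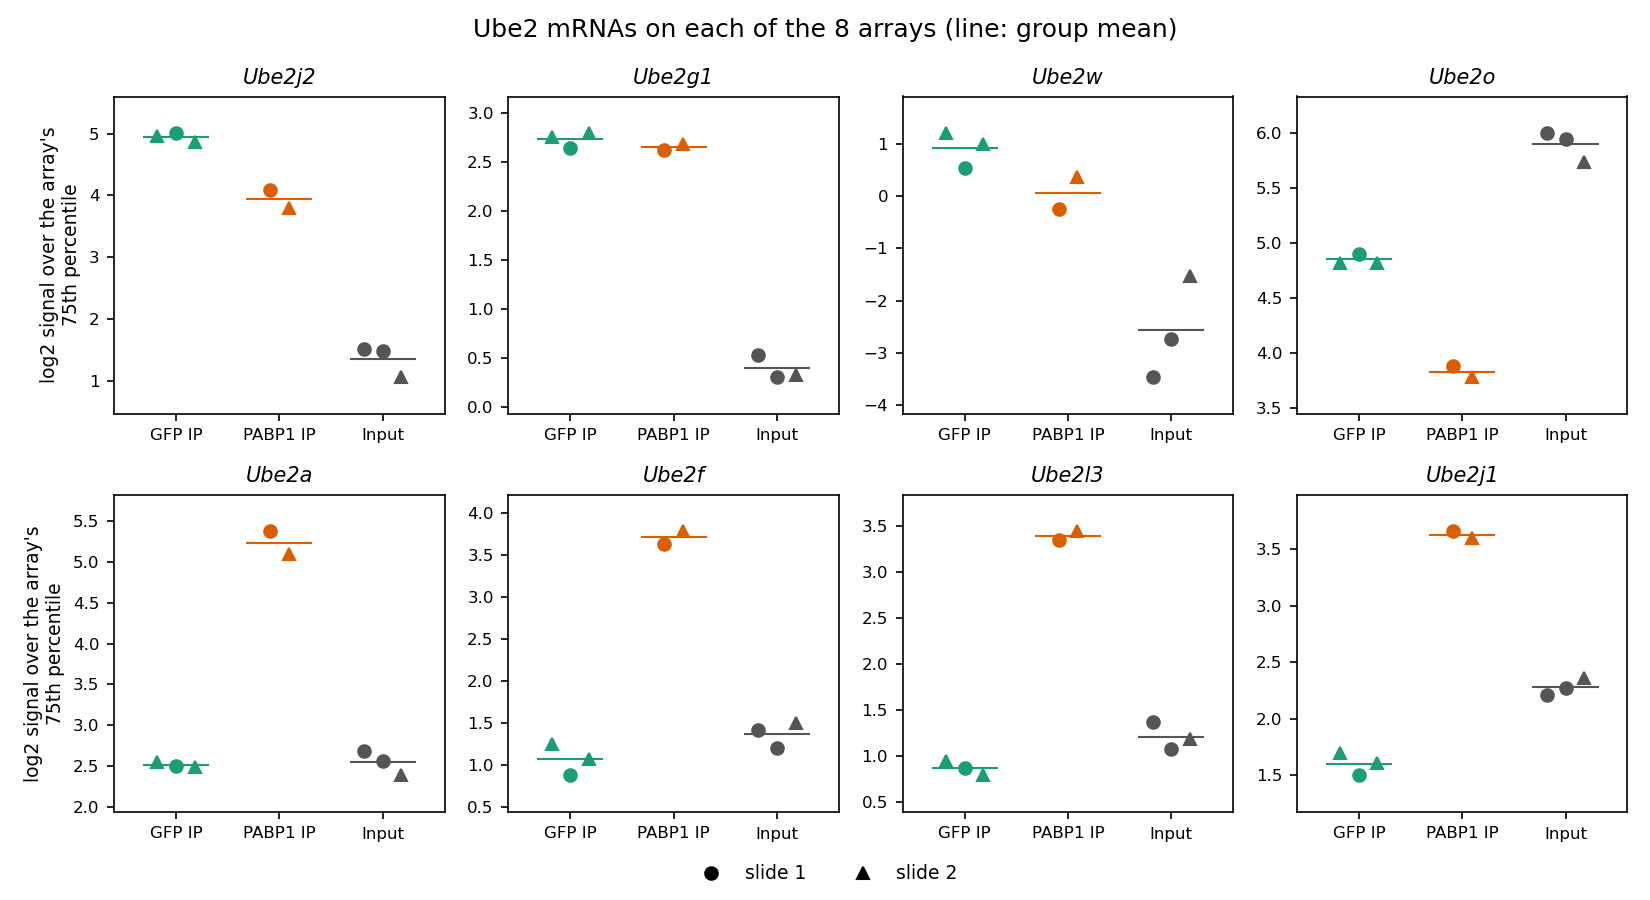
Log2 signal relative to the 75th percentile of its array (y axis, its range set for each gene) of 8 Ube2 mRNAs on every array, by group; circles are arrays of slide 1, triangles arrays of slide 2 and lines group means. On the probes that stood for the genes, Ube2j2, Ube2g1 and Ube2w lie above input in both IPs and Ube2o below input in both. On those probes Ube2a, Ube2f, Ube2l3 and Ube2j1 are high in the PABP1 IP alone.

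Ube2c starts and Ube2s extends the ubiquitin chains that the anaphase-promoting complex builds to drive exit from mitosis. Both mRNAs were higher than input in the PABP1 IP, by 2.24 ± 0.17 for Ube2c (adjusted p = 4.85e-05) and 1.09 ± 0.21 for Ube2s (adjusted p = 0.00313) on the log2 scale. In the GFP IP Ube2c was higher by 1.40 ± 0.15 (adjusted p = 0.000206), while Ube2s differed by 0.43 ± 0.19 (adjusted p = 0.0751). Both were lower in the GFP IP than in the PABP1 IP, by log2 differences of -0.83 ± 0.17 for Ube2c (adjusted p = 0.00325) and -0.66 ± 0.21 for Ube2s (adjusted p = 0.0238). That of Ube2c was -0.04 after quantile normalization (adjusted p = 0.798) and -0.37 with median scaling (adjusted p = 0.0747), and normexp also ended its call. The Ube2s difference between the IPs was 0.69 after quantile normalization and lost its call without GFP IP 2, GFP IP 3 or either PABP1 IP.

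Among the E2s of lysine-48 chains and of ER-associated degradation, the disposal of faulty proteins from the ER, 2 of 5 were higher and 1 lower than input in the GFP IP (21.5% and 43.3% of all tested genes), and 4 were higher in the PABP1 IP (34.3%). UBE2J1 and UBE2J2 are both anchored in the ER membrane. Ube2j2 had log2 levels of 4.96, 5.01 and 4.86 in GFP IPs and 4.09 and 3.79 in PABP1 IPs, against 1.52, 1.48 and 1.06 in inputs. The 3 groups were well apart with the GFP IP on top. Its log2 difference from input was 3.59 ± 0.16 in the GFP IP (adjusted p = 1.46e-05), at rank 32 of the 14730 tested genes, and 2.59 ± 0.18 in the PABP1 IP (adjusted p = 3.83e-05). Over the PABP1 IP the GFP IP was 2.01-fold higher (log2 difference 1.00 ± 0.18, adjusted p = 0.00186). A second Ube2j2 probe, detected on 7 of the 8 arrays, differed between GFP IP and input by 3.61 on the log2 scale, and another, detected on 5, by -0.18. Ube2j1 had log2 levels of 1.70, 1.50 and 1.61 in GFP IPs and 3.66 and 3.60 in PABP1 IPs, against 2.21, 2.27 and 2.36 in inputs. Here the GFP IP was the lowest group and the PABP1 IP the highest, with no overlap. The log2 difference of Ube2j1 was -0.68 ± 0.11 against input in the GFP IP (adjusted p = 0.00136), 1.35 ± 0.12 against input in the PABP1 IP (adjusted p = 9.98e-05) and -2.03 ± 0.12 between the IPs (adjusted p = 1.39e-05). When arrays were scaled to their medians, the Ube2j1 difference of the GFP IP from input was -0.14 (adjusted p = 0.594).

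UBE2G1 and UBE2R2 extend lysine-48 chains on substrates of cullin ligases, and UBE2G2 serves ER-associated degradation. Ube2g1 had log2 levels of 2.76, 2.65 and 2.80 in GFP IPs and 2.63 and 2.69 in PABP1 IPs, against 0.54, 0.31 and 0.33 in inputs. The IPs overlapped each other and both lay far above input, 5.06-fold for the GFP IP (log2 difference 2.34 ± 0.12, adjusted p = 1.78e-05) and 4.82-fold for the PABP1 IP (2.27 ± 0.13, adjusted p = 2.13e-05). Ube2r2 differed from input by 0.02 ± 0.29 in the GFP IP (adjusted p = 0.962) and was higher by 1.21 ± 0.32 in the PABP1 IP (adjusted p = 0.0139; 0.0976 without PABP1 IP 2). For Ube2g2 the same log2 differences were 0.01 ± 0.33 and 0.83 ± 0.37 (adjusted p = 0.987 and 0.0944). As the mean of its probes Ube2g2 was called higher in both, at 0.95 (adjusted p = 0.00128) and 1.65 (adjusted p = 0.000159). Ube2r2 as the mean of its probes was called higher in the GFP IP, at 0.69 (adjusted p = 0.0455). Its other probes, each detected on all 8 arrays, gave 1.49, 0.09 and 1.16 for the GFP IP over input. A block for slide led to calls of Ube2g2 in the PABP1 IP over input at 0.70 (adjusted p = 0.00214) and between the IPs at -0.94 (adjusted p = 0.000428).

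Of the E2s of ubiquitin-like proteins, 2 of 5 were higher than input in the GFP IP (21.5% of all tested genes) and 4 of 5 in the PABP1 IP (34.3%), where 1 of the 4, Ube2l6, passed the filter on dim probes only through that IP. Ube2f, which passes NEDD8 to cullin-5 ligases, had log2 levels of 1.25, 0.88 and 1.07 in GFP IPs and 3.63 and 3.78 in PABP1 IPs, against 1.42, 1.21 and 1.50 in inputs. GFP IP and input overlapped, and the PABP1 IP was 5.04-fold above input (adjusted p = 3.78e-05). Its log2 difference between the IPs was -2.64 ± 0.16 (adjusted p = 1.45e-05); that of the GFP IP from input was -0.31 ± 0.14 (adjusted p = 0.0984), and a block for slide made it -0.38 (adjusted p = 0.0143). Ube2m, the NEDD8 E2 of the other cullins, was higher than input by 0.94 ± 0.17 in the GFP IP (adjusted p = 0.00234) and by 1.53 ± 0.19 in the PABP1 IP (adjusted p = 0.000410). Its difference between the IPs, -0.59 ± 0.19 (adjusted p = 0.0267), lost its call without GFP IP 2 or GFP IP 3. In fits with only 1 PABP1 IP array it was -0.43 without PABP1 IP 1, -0.8 within slide 1 and -0.4 within slide 2.

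Ube2z, the E2 that takes ubiquitin or FAT10 from UBA6, went the other way. It had log2 levels of 4.12, 3.84 and 3.95 in GFP IPs and 3.03 and 2.96 in PABP1 IPs, against 3.04, 2.81 and 2.71 in inputs. The PABP1 IP overlapped input, at a log2 difference of 0.14 ± 0.15 (adjusted p = 0.447), and the GFP IP stood above both, by 1.12 ± 0.13 over input (adjusted p = 0.000354) and 0.97 ± 0.15 over the PABP1 IP (adjusted p = 0.000893). Ube2l6, the ISG15 E2, was not well above background in the GFP IP or in input. Its signal was at least 1.08-fold higher in the PABP1 IP than in input, with no p given because it entered the test only through the PABP1 IP, and no fold is given for the GFP IP over input.

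The last 5 tested members have separate roles, and 3 of them were higher in the GFP IP than in the PABP1 IP (24.0% of all tested genes). Ube2o had log2 levels of 4.82, 4.90 and 4.82 in GFP IPs and 3.88 and 3.78 in PABP1 IPs, against 6.0, 5.95 and 5.74 in inputs. It was lowest in the PABP1 IP and highest in input, with no overlap among the 3 groups. The log2 difference was -1.05 ± 0.12 against input in the GFP IP (adjusted p = 0.000229), -2.06 ± 0.13 against input in the PABP1 IP (adjusted p = 2.76e-05) and 1.01 ± 0.13 between the IPs (adjusted p = 0.000328). Ube2h, the E2 of the CTLH ligase, had log2 levels of 0.44, -0.27 and 0.10 in GFP IPs and -1.19 and -0.53 in PABP1 IPs, against -1.06, -1.02 and -0.65 in inputs. The PABP1 IP overlapped input and the GFP IP lay above both, with log2 differences of 1.00 ± 0.25 over input (adjusted p = 0.0102) and 0.95 ± 0.28 over the PABP1 IP (adjusted p = 0.0178; 0.133 without PABP1 IP 1).

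Ube2l3, which serves HECT ligases and parkin, had log2 levels of 0.95, 0.87 and 0.79 in GFP IPs and 3.35 and 3.44 in PABP1 IPs, against 1.37, 1.08 and 1.18 in inputs. The PABP1 IP was 4.54-fold above input (adjusted p = 2.64e-05), and the GFP IP lay just below input, at -0.34 ± 0.12 (adjusted p = 0.0401). That small GFP IP difference lost its call with the replicate block (adjusted p = 0.0567) and without Input 1, Input 3 or any 1 GFP IP array. It was -0.35 within slide 1 and -0.31 within slide 2, where some groups had only 1 array. As the mean of the gene's probes it was 0.34 (adjusted p = 0.0255). The log2 difference of Ube2l3 between the IPs was -2.52 ± 0.13 (adjusted p = 1.03e-05). Ube2q had log2 levels of 3.62, 2.74 and 3.23 in GFP IPs and 2.59 and 3.14 in PABP1 IPs, against 2.73, 2.51 and 3.07 in inputs. Its groups overlapped in every comparison, and none of its 3 log2 differences, 0.43 ± 0.27, 0.10 ± 0.30 and 0.33 ± 0.30, passed the test (adjusted p = 0.197, 0.801 and 0.349). A second Ube2q probe, detected on all 8 arrays, was above input by 2.04 in the GFP IP and 2.25 in the PABP1 IP. The 2 probes differed in both (differences between probes -1.61 ± 0.38 and -2.15 ± 0.43, adjusted p = 0.01 and 0.00471). As the mean of its probes Ube2q was called higher in both, at 1.24 (adjusted p = 0.000217) and 1.18 (adjusted p = 0.000412). Ube2q2 had log2 levels of 1.93, 2.07 and 1.64 in GFP IPs and 1.17 and 0.86 in PABP1 IPs, against 1.66, 1.58 and 1.17 in inputs. Neither IP differed from input past the threshold, at 0.41 ± 0.19 for the GFP IP (adjusted p = 0.0894) and -0.46 ± 0.21 for the PABP1 IP (adjusted p = 0.0995), and the IPs differed from each other by 0.87 ± 0.21 (adjusted p = 0.00782; 0.0540 without PABP1 IP 2). With slide as a block both differences from input passed, at 0.53 (adjusted p = 0.00429) and -0.40 (adjusted p = 0.0203).

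**Figure D3:**
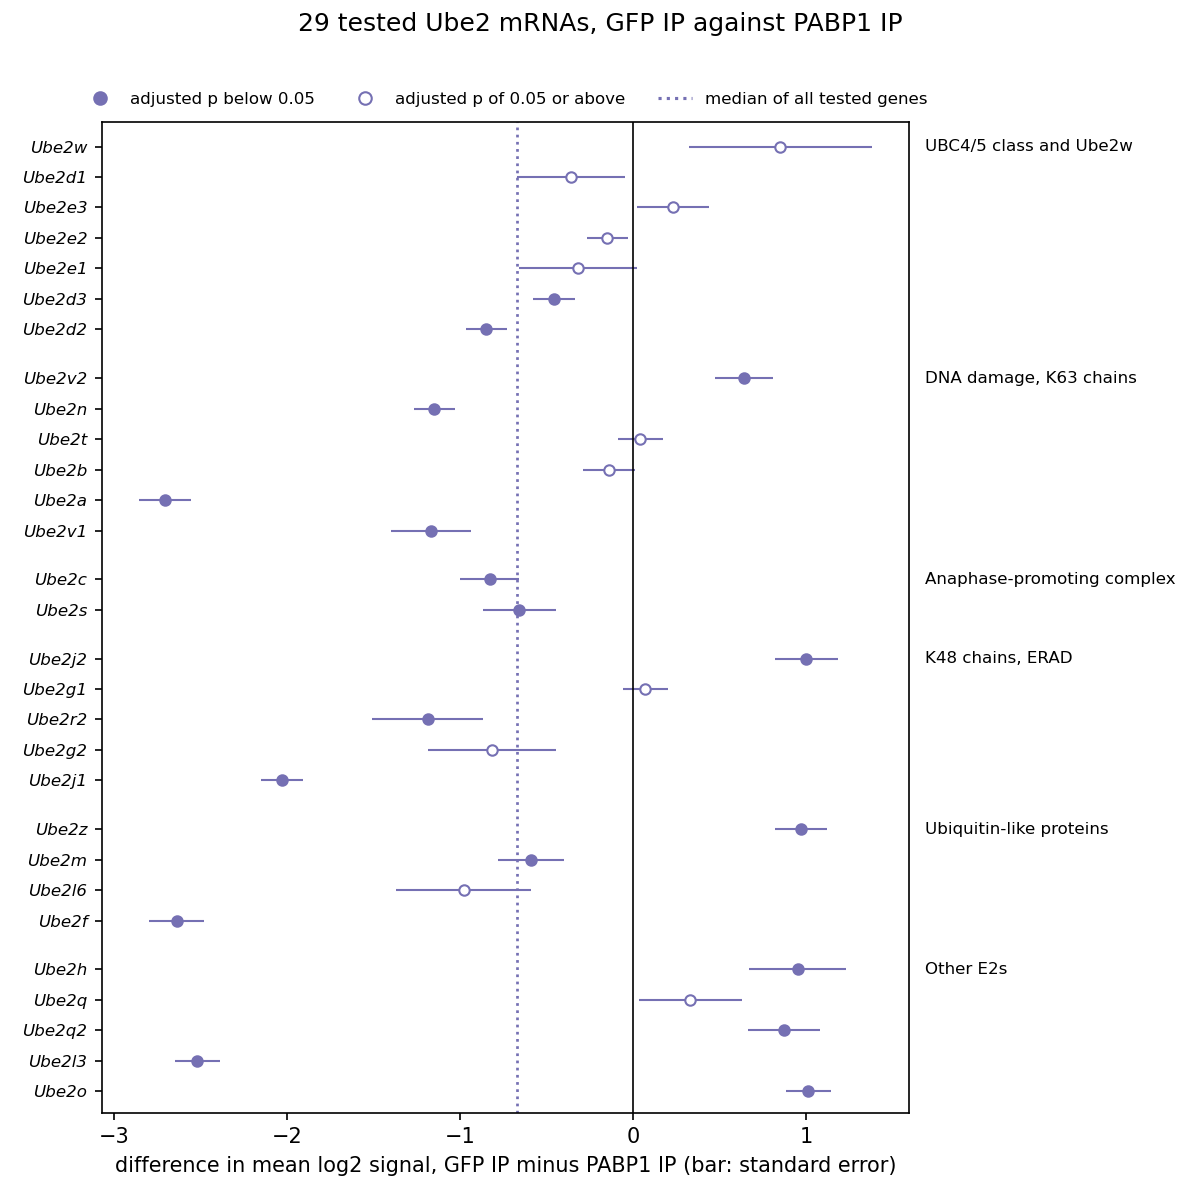
Difference in mean log2 signal, GFP IP minus PABP1 IP (x axis, with standard error), of 29 tested Ube2 mRNAs by role; filled points have an adjusted p below 0.05, and the dotted line marks the median of all tested genes at -0.67. Ube2o, Ube2j2, Ube2z and Ube2h lie between 0.95 and 1.01, and Ube2a, Ube2f, Ube2l3 and Ube2j1 lie at -2.03 or below.

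Different probes of a Ube2 gene often gave different differences, most of all between the IPs. Of the members, 16 had 2 or more probes well above background on all 8 arrays, 44 probes in all. The sign of the log2 difference varied among the probes of 5 of these 16 genes in the GFP IP against input. It varied for 4 in the PABP1 IP against input and for 12 between the IPs. These counts turn on where scaling puts 0, and the same counts over all genes with several probes are not given here. With median scaling the median gene between the IPs lay at -0.21, against -0.67 otherwise. The difference between the probe that stood for the gene and each other probe was tested over every such pair on the array, a test chosen after seeing the data. It was called for 16, 16 and 17 of the 28 Ube2 pairs in the 3 comparisons, against 47.1%, 47.8% and 36.0% of all 3671 pairs. The median size of the difference between the IPs was 1.15 for the Ube2 pairs and 0.44 for all pairs on the log2 scale.

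The mRNAs lowest in the GFP IP against the PABP1 IP were among those whose probes parted. The second Ube2l3 probe had log2 levels of 1.31, 1.21 and 1.19 in GFP IPs and 0.85 and 0.90 in PABP1 IPs, against 0.27, 0.21 and 0.18 in inputs. On it the GFP IP was the highest group, and its log2 difference between the IPs was 0.36, against -2.52 for the probe that stood for the gene (difference between probes -2.88 ± 0.13, adjusted p = 6.23e-06). A Ube2f probe designed on a cDNA clone had log2 levels of -0.50, -0.66 and -0.71 in GFP IPs and -1.91 and -2.13 in PABP1 IPs, against -1.90, -1.74 and -1.75 in inputs. That probe gave 1.40 between the IPs where the main one gave -2.64 (difference between probes -4.03 ± 0.18, adjusted p = 6.23e-06), and a further Ube2f probe, detected on 6 of the 8 arrays, gave -2.72. The second Ube2a probe gave -0.69 between the IPs, lower in the GFP IP like the main probe at -2.71 but smaller (difference between probes -2.02 ± 0.15, adjusted p = 4.14e-05). Ube2j1 had 1 probe detected on all arrays, so its value has no such check.

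Ube2d3 spread the most, from -2.04 to 2.01 over 4 probes. Its cDNA-clone probe had log2 levels of 2.06, 2.36 and 2.27 in GFP IPs and 0.20 and 0.24 in PABP1 IPs, against 0.37, 0.50 and 0.48 in inputs, which was high in the GFP IP alone. The 3 Ube2d2 probes ran from -2.66 to 0.30 between the IPs. Ube2q2 and Ube2h also changed sign, from -1.03 to 0.87 and from -0.65 to 0.95. The probes of Ube2s, Ube2m, Ube2g1 and Ube2b lay within 0.09, 0.10, 0.46 and 0.48 of each other on the log2 scale, those of Ube2g1 and Ube2b on both sides of 0. Where the probes lie in their transcripts was not analysed here.

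**Figure D4:**
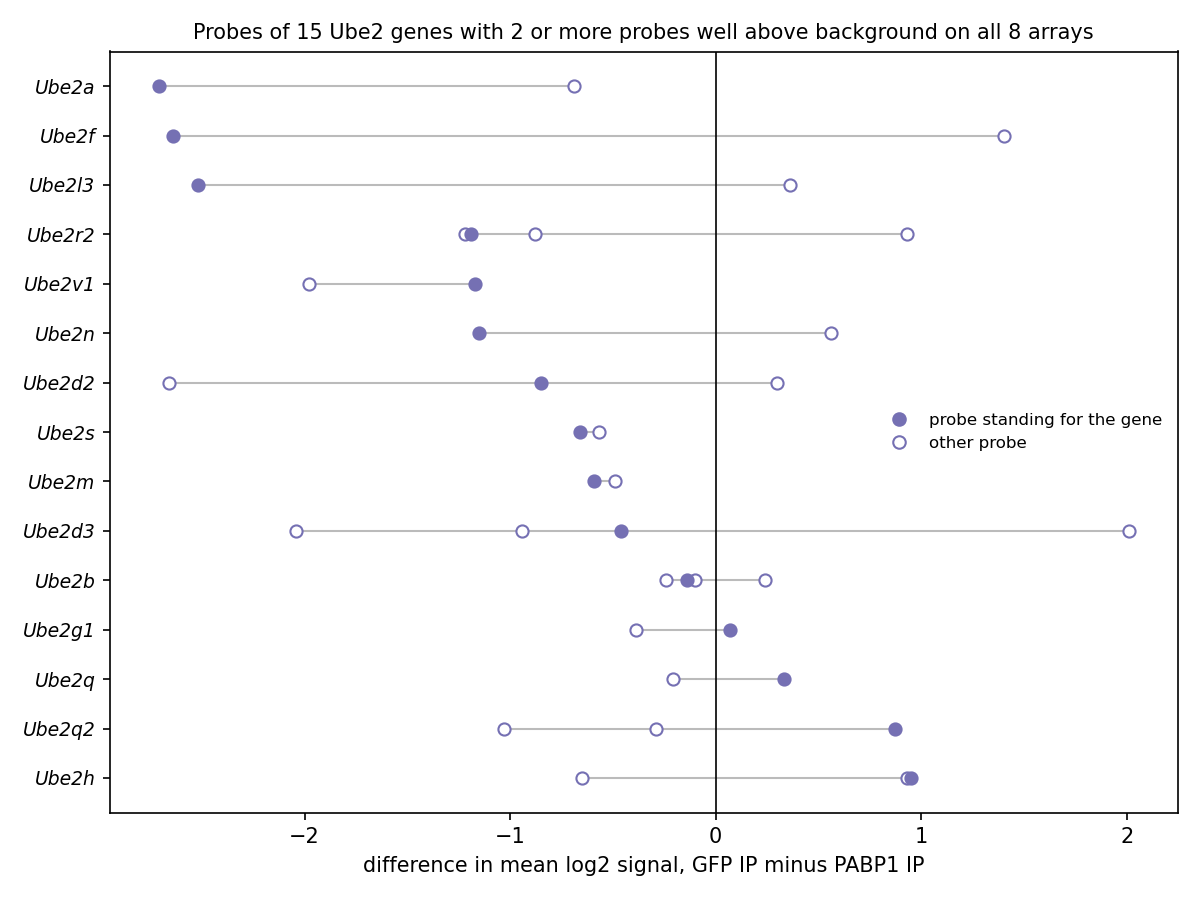
Difference in mean log2 signal, GFP IP minus PABP1 IP (x axis), for each of the 39 probes of 15 Ube2 genes with 2 or more probes well above background on all 8 arrays; filled points are the probes that stood for the gene. In 11 of these 15 genes the probes lie on both sides of 0, a count that depends on the scaling, and Ube2d3 spans -2.04 to 2.01.

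The other steps of the pathway are given by counts, with no test of their contrast with the Ube2 mRNAs. Each count reads against the shares of all tested genes, which were 21.5% higher and 43.3% lower for the GFP IP over input, 34.3% and 25.4% for the PABP1 IP over input, and 24.0% and 47.4% for the GFP IP over the PABP1 IP. Of 9 tested E1 enzymes, 2 were higher and 4 lower in the GFP IP than in input, and 0 were higher and 2 lower in the PABP1 IP. Nae1, a subunit of the NEDD8 E1, was higher than input by 1.71 ± 0.31 in the GFP IP (adjusted p = 0.00238). Uba7, the ISG15 E1, was lower there, at -1.89 ± 0.39 (adjusted p = 0.00445). Uba6, the E1 that loads UBE2Z, was lower than input in the PABP1 IP, at -2.25 ± 0.17 (adjusted p = 4.6e-05) and higher in the GFP IP by 0.78 ± 0.15 (adjusted p = 0.00289).

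E2s that carry another name numbered 7 tested, of which 2 were higher and 1 lower than input in the GFP IP (all genes 21.5% and 43.3%) and 6 were higher and 1 lower in the PABP1 IP (34.3% and 25.4%). Birc6, a very large E2 and E3 that inhibits apoptosis, was the lower one in both, at log2 differences of -1.50 ± 0.14 (GFP IP, adjusted p = 0.000105) and -2.03 ± 0.15 (PABP1 IP, adjusted p = 4.82e-05). Tsg101, an E2-like protein of endosomal sorting without catalytic activity, was the highest in both, at 1.32 ± 0.30 (GFP IP, adjusted p = 0.00710) and 2.38 ± 0.34 (PABP1 IP, adjusted p = 0.000789). Between the IPs 1 of the 7 was higher and 6 were lower.

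Of 19 mRNAs for ubiquitin and ubiquitin-like proteins, 6 were higher and 9 lower than input in the GFP IP (all genes 21.5% and 43.3%), and 12 were higher and 1 lower in the PABP1 IP (34.3% and 25.4%). Gabarap, an autophagy protein with the ubiquitin fold, was the highest in the PABP1 IP at 2.73 ± 0.12 (adjusted p = 1.67e-05), and its GFP IP difference was 0.23 ± 0.11 (adjusted p = 0.0960). Sumo3 was the highest in the GFP IP at 2.26 ± 0.14 (adjusted p = 2.99e-05).

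Of 55 tested E3 partners of these E2s, 27 were higher and 8 lower in the GFP IP than in the PABP1 IP (all genes 24.0% and 47.4%), with a median log2 difference of 0.78. Against input, 24 were higher and 19 lower in the GFP IP, and 12 were higher and 26 lower in the PABP1 IP. Siah1a, a RING ligase, was the highest in the GFP IP at 4.68 ± 0.33 (adjusted p = 4.49e-05), and Ubr2, which recognises amino-terminal degrons, was the lowest at -1.80 ± 0.18 (adjusted p = 0.000175). Rnf20, the histone H2B ligase that works with UBE2A and UBE2B, was lower than input in the PABP1 IP, at -4.49 ± 0.25 (adjusted p = 2.09e-05), the lowest value of the list. Rnf7, the RING subunit of the cullin-5 ligases that UBE2F serves, was the highest there at 2.54 ± 0.14 (adjusted p = 1.93e-05).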

How the data were processed

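The authors' deposited intensity values were made, per the file headers, with Agilent Feature Extraction 9.1.3.1 on array design 014868; it subtracted background, corrected spatial trends and gave dim spots a surrogate signal. Flags of the same files marked spots whose signal was well above background. A table of group means deposited by the authors holds intensities on a scale that these sources do not describe. Log2 of the processed intensity was taken and the 75th percentile of each array subtracted; 30 probes with an outlier flag were left out. Gene names are those of the array. Genes for which at least 1 group was well above background throughout were tested in R 4.3.3 by limma 3.58.1 (lmFit, then eBayes, on the 8 arrays; residual degrees of freedom 5, prior 2.1) and read with the data.table package (version 1.17.8), two-sided, with Benjamini-Hochberg adjustment and a threshold of 0.05. The script was tested on simulated data. Bounds follow each array's lowest signal among detected probes. Of the alternatives, 24 settings were run. Values on all 8 arrays are given for the 4 highest and 4 lowest Ube2 genes of each comparison and for the paralog groups Ube2d, Ube2e, Ube2a with Ube2b, and Ube2n with its partners; pathway lists are given by counts and their extreme genes. The members and lists were chosen with earlier results of these data known. Same-numbered arrays of different groups on different slides deviated oppositely (correlations of -0.74 to -0.29), and those on the same slide together (0.52 to 0.62), so the numbers were not taken as pairs. The number of arrays limits the precision. Python 3.11.15 with matplotlib 3.10.9 drew the figures. Some genes of these lists, 1 Ube2 member among them, are counted but not reported by name here and are not drawn.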

Additional observations from a re-analysis of the deposited data

How the results depend on the processing

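Against input, the members' median log2 difference was above 0 under every alternative run; for the GFP IP it was 1.31 with arrays scaled to their medians, 1.03 after quantile normalization, 0.34 with normexp and 0.45 over genes detected on all 8 arrays. For the PABP1 IP it was 1.36 with the 75th percentile taken over probes detected on all arrays, 1.29 after quantile normalization and 1.41 with normexp. Between the IPs the median had no settled sign, at 0.05 with median scaling, 0.02 after quantile normalization and -0.01 with the percentile over detected probes. Members higher in the GFP IP than in input numbered 5 with normexp, and lower ones 1 with median scaling and 0 with normexp. At normexp 14 were higher in the PABP1 IP than in input. Between the IPs it called 0 members higher in the GFP IP than in the PABP1 IP and 7 lower. Lower ones between the IPs also numbered 7 with median scaling and after quantile normalization, which gave 10 higher. Over all 14730 tested genes normexp called 1650 higher and 649 lower for the PABP1 IP over input. Between the IPs it called 1122 and 3107 of all genes, and quantile normalization 4201 and 5499. Members lower in the PABP1 IP than in input numbered 2 with the percentile over detected probes, the replicate block, slide as a block and array weights, and 1 to 2 with each array left out, 2 being the value without Input 3, which added Ube2q2. With each array left out in turn, 16 to 18 members were higher and 2 to 3 lower in the GFP IP than in input, 21 to 24 were higher in the PABP1 IP than in input, and 4 to 6 were higher and 10 to 14 lower in the GFP IP than in the PABP1 IP. The replicate block, on numbers that the check did not take as pairs, gave 17 and 2, 22 and 2, and 5 and 13. Over all tested genes that block called 3145 and 6353, 4780 and 3699, and 3394 and 6456. Without 1 input or GFP IP array, 2782 to 3128 of all genes were higher and 5339 to 6684 lower in the GFP IP than in input. In such fits 4548 to 5045 were higher in the PABP1 IP than in input. Between the IPs 3209 to 3592 were higher and 6150 to 7205 lower. Normexp, with its offset of 50, ended 35 of the single-gene calls. Among them were Ube2c, Ube2d1 to Ube2d3, Ube2o and Ube2z for the GFP IP over input. It also turned Ube2l6 to -0.16 in the PABP1 IP over input. For the GFP IP over input, median scaling turned Ube2a to 0.50 and Ube2l3 to 0.20, and the mean of a gene's probes turned them to 0.43 and 0.34. That mean also turned Ube2q2 to -0.15 between the IPs and Ube2b to -0.41 in the PABP1 IP over input. For Ube2b it included the cDNA-clone probe detected in inputs alone. Quantile normalization turned Ube2b to 0.49, Ube2d3 to 0.07 and Ube2s to 0.69 between the IPs. Another 67 changes of sign joined values that passed in neither fit. The cause of these changes was not tested.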

Other observations

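The mRNA of Ube2k, an E2 of lysine-48 chains, stands on the array under the older name Hip2 and so fell outside the naming rule. In a fit with names updated by accession it was higher than input in the PABP1 IP, at a log2 difference of 1.56 ± 0.12 (limma, adjusted p = 4.97e-05), and differed from input in the GFP IP by 0.22 ± 0.10 (adjusted p = 0.101). Between the IPs its difference was -1.34 ± 0.12 (adjusted p = 5.58e-05).

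In the authors' deposited table of group means, 9 Ube2 members have a single entry each. In the authors' deposited table the log2 ratio of GFP IP to input was 5.12 for Ube2d1, 3.77 for Ube2w, 2.98 for Ube2l6, 2.60 for Ube2e3, 2.21 for Ube2e2, 1.98 for Ube2c, 1.78 for Ube2e1, 1.06 for Ube2s and 1.01 for Ube2t. For Ube2d1 and Ube2l6, whose inputs were not well above background, the values computed here were 2.78 and 0.86, further from the authors' deposited table than those of the other members. In the authors' deposited table the ratio of GFP IP to PABP1 IP was 0.70 for Ube2e3, 0.35 for Ube2e2 and 0.07 for Ube2e1, where the values computed here were 0.23, -0.15 and -0.32. Over 7448 genes the median log2 ratio of the authors' deposited table between the IPs was -0.25, against -0.72 here; the scaling of that table is not stated in these sources.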
